A study of Saccharomyces cerevisiae with 11 samples.

Results

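The first of 7 fractions of a yeast polysome gradient was set against fractions 2 to 7 by the transcript leader called for each open reading frame (ORF). The comparison took every ORF with a call in fraction 1 and in 3 or more of fractions 2 to 7, and set the fraction 1 length against the median of the others. It held 1693 ORFs, out of 2081 called in fraction 1, 3635 called in any fraction and 4551 in the whole series. A further 171 ORFs were called only in fraction 1, and 302 were called in each of fractions 2 to 7 but not in fraction 1. Another 217 fraction 1 calls, with 1 or 2 calls in the other fractions, were not compared. All 7 libraries came from the S288C-derived strain BY4742, of mating type α, with the alleles his3∆1, leu2∆0, lys2∆0 and ura3∆0, grown at 30°C to mid-log phase in rich glucose medium with added adenine. Outside standards were 2 TL-seq libraries of S288C and 2 of Sigma 1278b, with and without tobacco acid pyrophosphatase; the Sigma strain is labelled MAT a ura3 leu2 trp1 his3. There was 1 library per fraction with no repeat gradient, the labels do not say which end of the gradient fraction 1 came from, and the sources used here do not say whether the fractions came from 1 gradient.

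A transcript leader is the part of an mRNA that lies ahead of the start codon and begins at the cap. The small ribosomal subunit usually enters at the cap and scans along the leader, so leader length decides how far it travels and which upstream start codons it passes. Many yeast genes have several transcription start sites, and the mRNAs they give can differ in leader while encoding the same protein. A polysome gradient parts mRNAs by sedimentation: free mRNAs and mRNAs with few ribosomes sediment slowly and mRNAs with many ribosomes fast, so a long ORF, which has room for more ribosomes, tends to sediment faster. TATL-seq sequences capped 5′ ends from such fractions. The deposited values are 1 leader length per gene and library in nucleotides (nt), with no reads, so they say neither how much mRNA lay in a fraction nor how many start sites were in use. A gene absent from a file is treated as not called.

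Fraction 1 stood apart from the other libraries before any gene is considered. It had 2081 ORF calls, against 2412 to 2483 in fractions 2 to 7. Of the ORFs compared, 7.21% lay at least 10 nt outside the whole range of the other fractions in fraction 1; the same measure, each fraction against the other 6, gave 1.24% to 3.74% in fractions 2 to 7. The number called in that fraction alone was 171 in fraction 1 and 42 to 94 in the others, and the number called everywhere else but there was 302 in fraction 1 and 21 to 50 in the others. Each of these measures put fraction 1 outside the other 6, with p = 0.143 (exact permutation test over the 7 libraries, two-sided), which is the smallest value that 1 library against 6 can give. With fraction 1 left out of the ranges of the others, fractions 2 to 7 gave 1.03% to 4.93%, and fraction 1 against each set of 5 gave 6.68% to 8.61%. The read depth behind the calls is unknown, and the part that depth or the smaller number of calls plays in these counts was not tested.

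**Figure D1:**
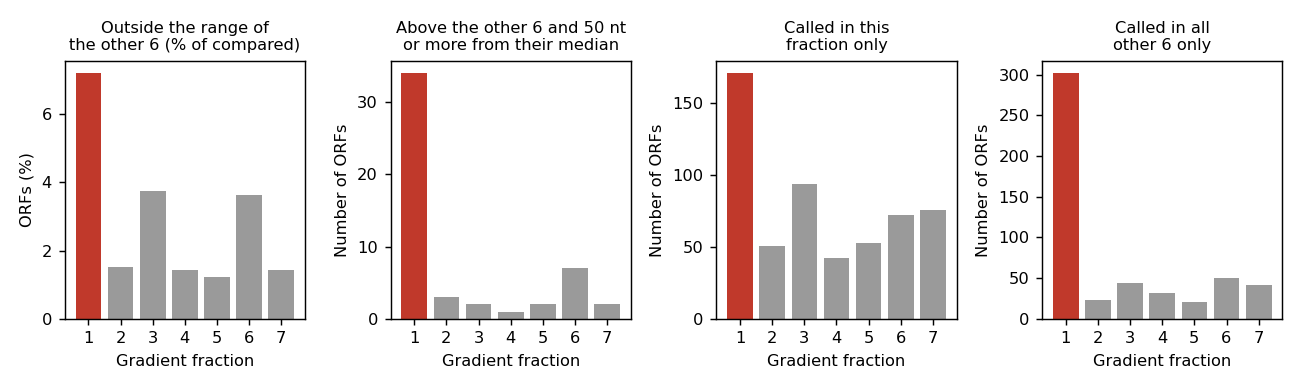
Each gradient fraction set against the other 6. Bars show, from left to right, the percent of compared ORFs at least 10 nt outside the range of the other fractions, the number above that range and at least 50 nt from the median, the number called in that fraction alone, and the number called in all other fractions but not there. Fraction 1 (red) has the highest bar in each panel, at 7.21%, 34, 171 and 302.

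Most leaders were nevertheless the same in fraction 1 as elsewhere. The difference, fraction 1 minus the median of fractions 2 to 7, was 0 nt for 851 of 1693 ORFs (50.3%) and under 10 nt for 1421 (83.9%). Its median was 0 nt with quartiles at −2 and 0 nt, and the median leader was 34 nt in fraction 1 and 34 nt in the others. In 426 ORFs all 7 fractions gave 1 and the same length. Among the 1221 ORFs called in all 7 fractions, fraction 1 lay under 10 nt from another fraction in 82.0% to 87.3% of ORFs, depending on the fraction, while pairs among fractions 2 to 7 did so in 85.5% to 94.4%. Fraction 6 was the least like fraction 1, and it was also at 85.5% with fraction 3.

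Fraction 1 was at least 10 nt longer for 117 ORFs (6.91% of those compared) and at least 10 nt shorter for 155 (9.16%). In many of these, another fraction lay under 10 nt from fraction 1: this held for 51 of the 117 longer and 95 of the 155 shorter ORFs. By the same limit, fraction 3 was the most frequent partner on both sides, with 27 of the longer and 40 of the shorter ORFs, and fraction 6 the least frequent, with 3 and 11. A stricter count took ORFs whose fraction 1 leader lay at least 10 nt beyond every other call. It found 64 ORFs above (3.78%) and 58 below (3.43%), and in 40 of the 64 and 41 of the 58 the other fractions spanned under 10 nt among themselves. All 6 others had a call in 24 of the 64 and 33 of the 58, and in 1221 of the 1693 compared. With fewer calls the range to exceed can be narrower.

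ORFs above the range lay a median of 66.5 nt from the others, those below it −18 nt. By 50 nt or more from the median, 34 lay above and 10 below, and by 100 nt or more 25 and 6. A leader cannot shorten by more than its own length, and 1127 of the 1693 compared ORFs had a median under 50 nt in the others, so the sizes on the short side were bounded. Each of fractions 2 to 7 had 1 to 7 ORFs above by 50 nt or more (0 to 6 with fraction 1 left out) and 1 to 5 below. For the 34 ORFs the fraction 1 leaders ran from 82 to 494 nt with a median of 199.5 nt, where the medians of the other fractions ran from 2 to 309 nt with a median of 31.5 nt. With a single library of fraction 1 no gene can be tested. The spread of fractions 2 to 7 is the only spread at hand, and it mixes differences between fractions with error.

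**Figure D2:**
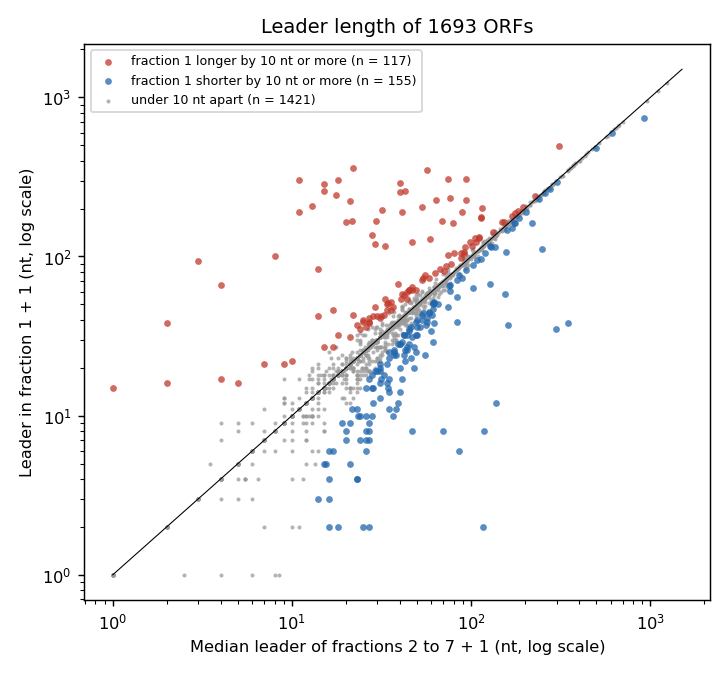
Leader length in fraction 1 (vertical axis) against the median of fractions 2 to 7 (horizontal axis), both in nt with 1 added, on log scales; each point is 1 of 1693 ORFs and the line marks equal lengths. The 117 longer ORFs (red) lie up to 337 nt above the line and 27 of them at least 100 nt above it; of the 155 shorter ORFs (blue), 113 lie under 20 nt below it.

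The rule for naming took the 15 largest differences on each side among ORFs beyond the range of the others. The 15 genes are described here by what they encode, an order made after they were chosen. PGC1 codes for a phospholipase that degrades phosphatidylglycerol, and its leader was 283 nt in fraction 1 and 14 nt in each of the others; S288C TL-seq gave 26 nt in both replicates and Sigma 14 nt. ERG3, for the C-5 sterol desaturase, had 207 nt in fraction 1, against 11, 15, 15, 13, 11 and 11 nt in fractions 2 to 7, with 70 nt in both S288C TL-seq replicates. ERG5, for the C-22 sterol desaturase, had 257 nt in fraction 1, against 42 nt in fractions 2, 4 and 5, the only others with a call. In these genes the other fractions called gave the short leader with a spread of at most 4 nt. TL-seq gave no length for ERG5, and its lengths for PGC1 and ERG3 were 70 nt or less.

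The list of secreted and cell wall proteins, with 20 of the 1693 compared ORFs, held 3 of the 15. Of these, FIT2 also stands in a list of iron uptake genes. MF(ALPHA)2, a gene for the mating pheromone α-factor, had 287 nt in fraction 1, against 39, 39, 38, 41 and 39 nt in fractions 3 to 7, and 53 nt in both S288C replicates. PRY2, for a secreted sterol-binding protein, had 254 nt in fraction 1 and 36, 39, 46, 39 and 46 nt in fractions 3 to 7. FIT2, for a cell wall mannoprotein that helps retain iron carriers, had 301 nt in fraction 1 and 13, 17, 17, 17 and 13 nt in fractions 3 to 7. FIT2 was the only one of these with an outside call at the long length, 316 nt in Sigma TL-seq; it had no S288C TL-seq call. None of these genes was called in fraction 2.

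Another of the 15, GLO1, for glyoxalase I, which detoxifies methylglyoxal, had 258 nt in fraction 1 and 14 nt in each of the others. NNR2, for an enzyme that repairs damaged NAD(P)H, had 243 nt in fraction 1, against 13, 35, 13, 15, 18 and 18 nt in fractions 2 to 7. BNA1, of the kynurenine route to NAD, had 494 nt in fraction 1, against 309, 139 and 309 nt in fractions 2, 3 and 7. The 15 largest differences also held the transcription factor gene CRZ1, which acts downstream of calcineurin, with 304 nt in fraction 1 and 92 to 95 nt in 5 others. They held the cohesin gene MCD1, with 226 nt in fraction 1 and 62 to 65 nt in 5 others, and the translation elongation factor methyltransferase gene EFM1, with 223 nt in fraction 1 and 17 to 25 nt in 3 others. The zinc transporter gene YKE4 had 188 nt in fraction 1 and 8 to 15 nt in 4 others. MIN7 had 358 nt in fraction 1 and 16 to 21 nt in 4 others, and YPL088W 303 nt in fraction 1 but 97, 10 and 10 nt in fractions 3, 4 and 7. All 15 were chosen for their size, so their sizes are a description.

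**Figure D3:**
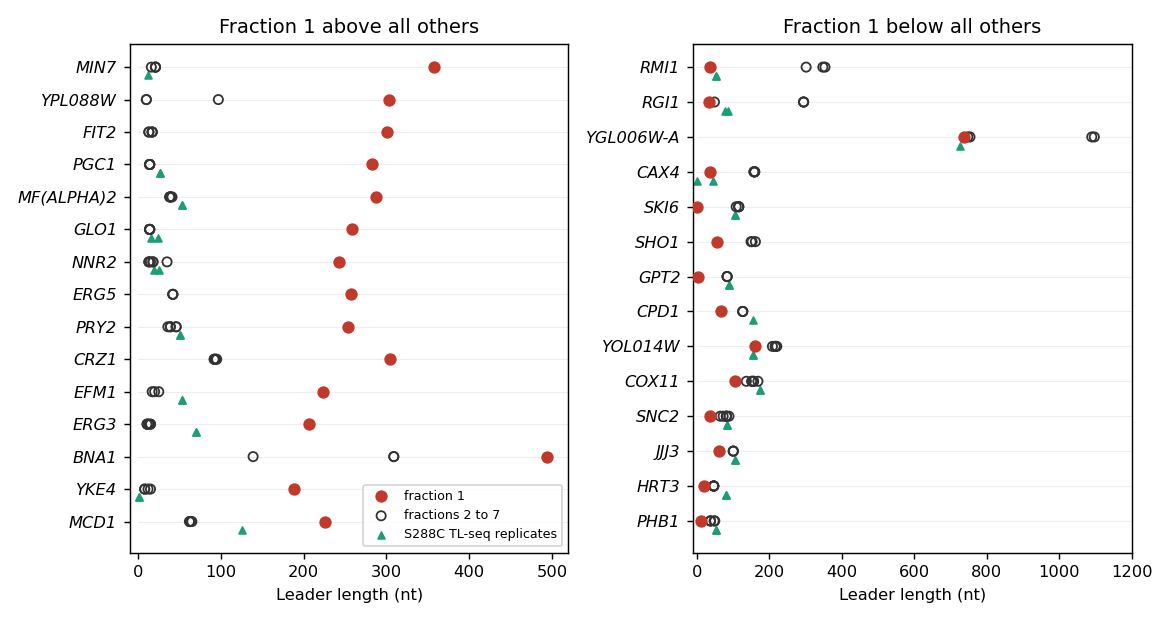
Leader length in nt (horizontal axis) of the 15 ORFs with the largest positive difference (left panel) and 14 of the 15 with the largest negative difference (right panel) among ORFs with fraction 1 at least 10 nt beyond every other fraction. Red points are fraction 1, open circles fractions 2 to 7 where called, green triangles the S288C TL-seq replicates. On the left the red points stand clear of the circles. The circles form tight groups in many genes, as for PGC1 at 283 nt against 14 nt. They spread wider for BNA1, at 139 to 309 nt, and YPL088W, at 10 to 97 nt. On the right RMI1, at the top, has 37 nt in fraction 1 against 302 to 354 nt. PHB1, at the bottom, has 11 nt against 38 to 50 nt.

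On the other side stood the 15 genes with the largest shortening. RMI1, for a partner of the Sgs1 helicase and topoisomerase III, had 37 nt in fraction 1, against 354, 302 and 348 nt in fractions 2, 6 and 7, and S288C TL-seq gave 54 nt in both replicates, nearer to fraction 1. RGI1, a gene of energy metabolism in respiratory growth, had 34 nt in fraction 1, against 49, 295, 295 and 295 nt in fractions 3, 4, 6 and 7; its TL-seq lengths were 86 and 77 nt. CAX4, for a phosphatase of dolichyl pyrophosphate, had 36 nt in fraction 1 and 158, 158, 160, 160 and 160 nt in fractions 2, 4, 5, 6 and 7. For CAX4 the S288C replicates disagreed, at 1 and 46 nt, and Sigma gave 153 nt.

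SKI6, for a subunit of the exosome that degrades RNA, had 1 nt in fraction 1, against 116, 116, 116 and 109 nt in fractions 2, 3, 5 and 6, while both S288C replicates gave 107 nt. GPT2, for an acyltransferase that starts phospholipid synthesis, had 5 nt in fraction 1, against 84 nt in fractions 2, 3 and 7, with 89 nt in both S288C replicates. In both genes fraction 1 placed the 5′ end almost at the start codon, and TL-seq lay nearer to the other fractions. SHO1, an osmosensor gene, had 57 nt in fraction 1 and 150 to 162 nt in 3 others. CPD1, for a cyclic phosphodiesterase, had 66 nt in fraction 1 and 127 nt in 3 others. The small ORF YGL006W-A had 738 nt in fraction 1, while the others split: fractions 3 and 4 gave 748 and 754 nt, and fractions 2 and 7 gave 1097 and 1090 nt.

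The smaller of the 15 largest shortenings included genes called in every fraction. COX11, which delivers copper to cytochrome oxidase, had 105 nt in fraction 1, against 137, 169, 157, 157, 152 and 152 nt in fractions 2 to 7. SNC2, for a secretory vesicle SNARE, had 38 nt in fraction 1, against 82, 65, 82, 73, 82 and 89 nt. The prohibitin gene PHB1 had 11 nt in fraction 1 and 38 to 50 nt in fractions 3 to 7, HRT3 19 nt in fraction 1 and 47 nt in 5 others, the co-chaperone gene JJJ3 62 nt in fraction 1 and 101 nt in 3 others, and YOL014W 162 nt in fraction 1 and 209 to 221 nt in 5 others. Just inside the threshold on the short side, CDC11 had 42 nt in fraction 1 and 52 or 53 nt elsewhere, BUD2 50 nt in fraction 1 and 56 to 60 nt elsewhere, and AVT7 31 nt in fraction 1 and 30 to 42 nt elsewhere. Just outside it, CDC37 had 36 nt in fraction 1 and 45 nt in all others, ARP5 24 nt in fraction 1 and 33 or 34 nt in 5 others, and RTT103 36 nt in fraction 1 and 36 to 52 nt elsewhere. On the long side, POP3, with 35 nt in fraction 1 and 25 nt in all others, ODC1, with 26 nt in fraction 1 and 16 or 26 nt, and MUM2, with 97 nt in fraction 1 and 85 or 87 nt, lay just inside. RPS7A, with 26 nt in fraction 1 and 10 to 26 nt elsewhere, ADE8, with 82 nt in fraction 1 and 73 to 82 nt, and COQ2, with 43 nt in fraction 1 and 34 or 43 nt, lay just outside.

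In some genes the long leader of fraction 1 was shared with another fraction. ATG33, needed for mitophagy, had a 346 nt leader in fraction 1, shared with fraction 2, against 65, 56, 56 and 56 nt in fractions 3, 4, 6 and 7, and Sigma TL-seq gave 346 nt while the S288C replicates gave 57 and 61 nt. IDI1, for an early enzyme of isoprenoid synthesis, had 202 nt in fraction 1, shared with fraction 3, and 114 nt in the 4 others called. The tropomyosin gene TPM1 had 37 nt in fraction 1, shared with fractions 3 and 4, against 1 nt elsewhere; LSM2 had 65 nt in fraction 1, shared with fraction 3, against 3 to 6 nt in the others called. CYC7, for the minor form of cytochrome c, had 162 nt in fraction 1 and a near length, 167 nt, in fraction 2, against 78 nt in both others called. Each gene here alternated between a long and a short length, and fraction 1 was not the only fraction with the long one. These 5 were chosen after their values were seen.

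TL-seq, which played no part in the choice of these ORFs, was set beside them. The choice took ORFs in which the single fraction 1 length departed from a median of other fractions. That alone tilts an outside standard toward the others, so the shares below do not decide which length is right. Of 101 longer ORFs with an S288C TL-seq length (the mean of the replicates called), 47 had it nearer to fraction 1 and 54 nearer to the other fractions, so 46.5% lay on the side of fraction 1 (95% Wilson interval 37.1 to 56.2). Of 149 shorter ORFs, 46 lay nearer to fraction 1, 102 nearer to the others and 1 midway (30.9% on the side of fraction 1, interval 24.0 to 38.7). Among the strict sets, the shares nearer to fraction 1 were 14 of 51 above the range and 20 of 56 below it. CTF19, of the kinetochore, was 1 of the 14: it had 188 nt in fraction 1, 40, 50, 40, 40, 40 and 49 nt in fractions 2 to 7, and 179 nt in both S288C replicates, whereas Sigma had 31 nt. Against Sigma TL-seq, 15 of 62 longer and 23 of 104 shorter ORFs lay nearer to fraction 1. These intervals hold only the counting error, and ORFs are not replicates of each other. Over all 1536 compared ORFs with an S288C TL-seq length, the median of fraction 1 minus TL-seq was −5 nt. Fraction 1 was at least 10 nt shorter than TL-seq in 33.2% of them and at least 10 nt longer in 10.4%. The part that this offset plays in the shares of longer and shorter ORFs was not tested, and no such share was counted for fractions 2 to 7.

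The longer and shorter ORFs were also placed on the genome through the RefSeq gene table of assembly R64, the assembly that sacCer3 is built on. PGC1 lies on chromosome XVI from 162632 to 163597, and the gap to its upstream neighbour, the casein kinase gene HRR25, is 678 nt, longer than the 283 nt leader. GLO1 lies on chromosome XIII at 261705 to 262685, with a gap of 797 nt upstream. The leader end of fraction 1 fell inside the upstream neighbouring gene for 0 of the 117 longer ORFs, 1 of the 155 shorter ones and 3 of all 1687 compared ORFs with a gap (0.178%). It did so for 4 of 170 ORFs called only in fraction 1 (2.35%), among them ARX1, with a 365 nt leader and a gap of 180 nt, and GDH1, with 193 nt and 148 nt. The median gap was 576 nt for longer ORFs, 440 nt for shorter ones and 419 nt over all of those compared. Whether the authors' lengths count introns is unknown, so these positions assume an unspliced leader.

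The ORF itself was somewhat longer in the longer set, and in the shorter set it was near the length over all compared. Its median length was 1029 nt for the longer set, 954 nt for the shorter set, and 933 nt over all compared. For the strict sets it was 1105.5 nt above and 993 nt below. These lengths are genomic spans from the gene table, introns included.

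ORFs missing from fraction 1 showed a plainer relation with ORF length. Among 1523 ORFs called in each of fractions 2 to 7, 302 (19.8%) had no call in fraction 1; over all 3635 ORFs called in any fraction, the missing were 8.31%. The share was 7.27% for ORFs under 500 nt (17 of 234) and 14.3% from 500 nt to under 1000 nt (82 of 575). It was 27.0% from 1000 nt to under 1500 nt (103 of 382), 29.5% from 1500 nt to under 2500 nt (80 of 271) and 32.8% at 2500 nt or more (20 of 61). Thus the longer the ORF, the more often fraction 1 alone lacked it. In fractions 2 to 7 the same shares ran from 1.81% to 5.24% in the shortest class and from 0% to 12.8% in the longest, where 41 to 47 ORFs were counted per fraction and at most 6 were missing. Between these classes the share also rose in fraction 3 (2.69% to 12.8%), in fraction 6 (2.25% to 6.82%) and in fractions 2 and 5 (1.81% to 4.65% each). It fell in fraction 4 (3.56% to 2.38%) and fraction 7 (5.24% to 0%). A rise was thus not particular to fraction 1, though its share was the highest in every class. By leader length the missing share in fraction 1 was more even: 17.9% under 25 nt, 17.8% from 25 to under 50 nt, 25.9% from 50 to under 100 nt and 21.5% at 100 nt or more. The share is a relation across ORFs of these libraries, and mRNA abundance, which can vary with ORF length, was not measured here.

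**Figure D4:**
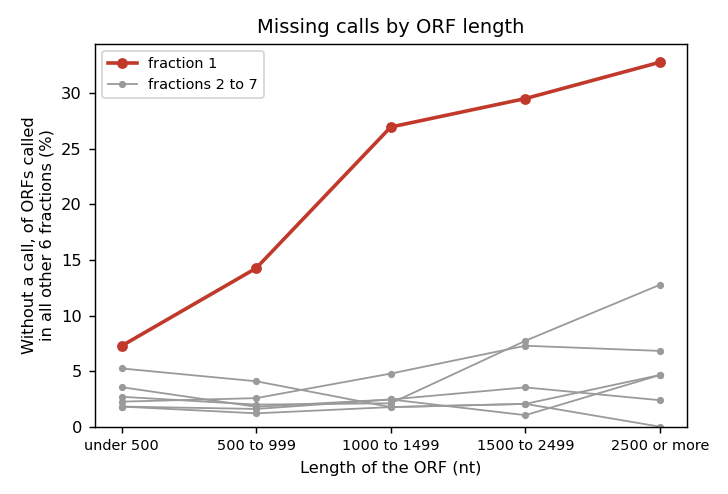
Share of ORFs without a call in a fraction, among ORFs called in all other 6 fractions (vertical axis, percent), by length of the ORF in nt (horizontal axis). Fraction 1 (red) climbs from 7.27% in the shortest class to 32.8% in the longest; fractions 2 to 7 (grey, 1 line each) stay at or under 12.8%.

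Most of the missing ORFs had steady leaders elsewhere, but a smaller share of them than of the ORFs called in all 7 fractions. In 211 of the 302 (69.9%) fractions 2 to 7 spanned under 10 nt and in 97 all 6 gave the same length; for the 1221 ORFs called in all 7 fractions, the other 6 spanned under 10 nt in 937 (76.7%). S288C TL-seq called 269 of the 302 (89.1%) and Sigma 208 (68.9%), against 93.2% and 76.6% of all 1523. Their median leader was 36.75 nt, with quartiles at 20 and 68.5 nt. Without pyrophosphatase 8 of the 302 were called in Sigma (2.65%), against 167 of the 1523.

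At the long end, IST2, which tethers the endoplasmic reticulum to the plasma membrane, had 309 nt in all of fractions 2 to 7 and in Sigma and 304 nt in both S288C replicates. KIP3, a kinesin gene, had 257 to 261 nt in fractions 2 to 7 and 260 nt in Sigma, and DCW1, for a cell wall enzyme, 227 to 230 nt. YAP6 had 199 nt in each of the 6, the corepressor gene CYC8 181 to 187 nt, LDB17 178 to 187 nt, YCP4 179 nt, ESC2 170 to 172 nt, NSG2 168 to 171 nt, and the ubiquitin-conjugating enzyme gene CDC34 156 nt. Short leaders were missed in the same way. The kinase gene CAK1, which activates Cdc28, had 0 nt in all of fractions 2 to 7 and CLP1, for mRNA 3′ end cleavage, 0 or 7 nt. MSC2 had 1 nt, the silencing gene SIR3 4 nt and PSF3, of the GINS replication complex, 5 nt throughout. CTK3 had 5 nt, MFG1 5 to 7 nt, the polymerase III factor gene BRF1 0 to 6 nt, CCL1 4 to 6 nt and PUS1 4 to 9 nt. The longest missing ORFs, BUD3 at 4911 nt and PAN1 at 4443 nt, named after their values were seen, had leaders of 94 to 99 nt and 33 nt.

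The 171 ORFs called only in fraction 1 (4.70% of 3635) had long ORFs, with a median of 1692 nt and quartiles at 1149 and 2431.5 nt, against 995 nt over all 2081 fraction 1 calls, and 36 (21.1%) reached 2500 nt against 7.11%. ORFs called in one of fractions 2 to 7 alone had medians of 1209 to 1411.5 nt, and 8.33% to 17.1% of them reached 2500 nt. In the 171, leaders had a median of 94 nt, against 37 nt over all fraction 1 calls and 42 to 54.5 nt for ORFs called in another single fraction. So both the ORFs missing from fraction 1, at a median of 1236 nt, and those found there alone had longer ORFs than the 904 nt of ORFs called in all 7. S288C TL-seq called 112 of the 171 (65.5%), Sigma TL-seq 17 (9.94%) and the Sigma library without pyrophosphatase none, which allows a share of up to 1.75% (3 counts of 171, counting error only); over all fraction 1 calls the shares were 86.9%, 57.9% and 8.31%. ORFs called in another single fraction had shares of 54.8% to 71.3% in S288C TL-seq, a range that holds the 65.5% of fraction 1, and of 10.6% to 27.8% in Sigma. Their share in the Sigma library without pyrophosphatase was not counted.

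Of the 112 with an S288C TL-seq length, 36 (32.1%) lay under 10 nt from it, against 53.3% of all 1808 fraction 1 calls with one. A difference of 100 nt or more, fraction 1 above TL-seq, was found in 18 of the 112 (16.1%) and in 65 of the 1808 (3.60%), which include the 18. The opposite, fraction 1 lower by 100 nt or more, was found in 0 of the 112 and in 12 of the 1808.

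**Figure D5:**
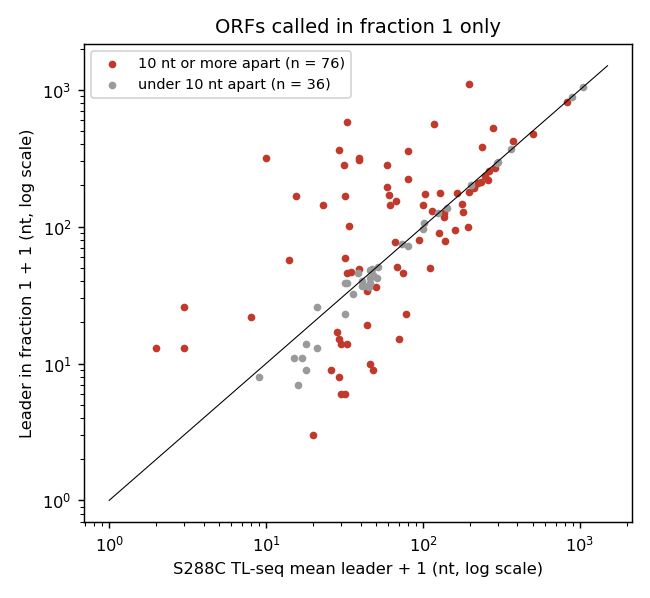
Leader length in fraction 1 (vertical axis) against the mean of the S288C TL-seq replicates called (horizontal axis), in nt with 1 added, on log scales, for the 112 ORFs called in fraction 1 alone that TL-seq also called. Grey points, 36 ORFs, are under 10 nt apart and red points, 76 ORFs, further; 18 lie at least 100 nt above the line of equal lengths and none that far below it.

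Of the 10 longest and 10 shortest leaders among those called in both S288C replicates, several long ones lay near TL-seq. BMH2, for a 14-3-3 protein, had 885 nt in fraction 1 and 893 nt in both S288C replicates, ICS2 817 and 830 nt, the ubiquitin ligase gene RSP5 471 and 505 nt with 481 nt in Sigma, and YDR124W 368 and 365 nt with 368 nt in Sigma. COS10 had 527 nt in fraction 1 and in Sigma, but 10 and 544 nt in the S288C replicates. Others lay far from it. ARX1, for a nuclear export factor of the large ribosomal subunit, had 365 nt in fraction 1 against 28 nt in both replicates, MAK32 565 against 116 nt, the acetyltransferase gene SAS3 383 against 229 and 241 nt, and the asparagine synthetase gene ASN2 304 against 38 nt. ENO1, for enolase, had 319 nt in fraction 1 against 38 nt. ENO1 and ASN2 each have a near copy in the genome, and the sources used here do not say how the authors assigned reads that such copies share.

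The 10 shortest leaders were chosen for being short in fraction 1, so their order against TL-seq is a description. Over all 112 ORFs, 37 (33.0%) were at least 10 nt longer than TL-seq and 39 (34.8%) at least 10 nt shorter. Over all 1808 fraction 1 calls with an S288C TL-seq length these shares were 12.6% and 34.1%, so only the longer share differed from them. ORFs called only in fraction 1 also had longer leaders, with a median of 94 nt against 37 nt over all fraction 1 calls. No such shares were counted for ORFs called in another single fraction. YJU3, for a monoglyceride lipase, had 2 nt in fraction 1 against 19 nt in both replicates, PUF6 5 against 29 nt, RPS20 5 against 31 nt, RPS11A 6 against 15 nt and the squalene epoxidase gene ERG1 7 against 28 nt. NOP56, of the box C/D small nucleolar RNPs, had 8 against 25 nt, FPR3 9 against 45 nt, COG3 8 against 17 nt and SPO16 7 against 8 nt. URM1, a ubiquitin-like protein gene, had 8 nt in fraction 1 and in Sigma but 47 nt in S288C. The longest ORFs of the set, named after their values were seen, were SEN1, a helicase gene of 6696 nt, with a 298 nt leader, the glutamate synthase gene GLT1 of 6438 nt, with 268 nt against 286 and 290 nt in TL-seq, and CDC39 of 6327 nt, with 22 nt against 31 nt. FAS2, for fatty acid synthase, had 48 against 38 nt, the glucan synthase gene FKS1 218 against 258 nt, and GCN2, the kinase that senses amino acid starvation, 120 nt with no TL-seq call.

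By function, 16 gene lists were counted, each beside the share over all ORFs: 6.91% longer, 9.16% shorter, 4.70% called only in fraction 1 and 8.31% missing from it. The counts are a description, and 11 genes stand in more than 1 list. The median difference was 0 nt in every list.

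Genes of secreted and cell wall proteins had 7 of 44 members called in any fraction found in fraction 1 alone (15.9%), with 1 missing (YGP1). The 7 were PIR1 at 357 nt, the glucanase genes EXG1 at 95 nt and SCW10 at 89 nt, the daughter cell separation genes EGT2 at 68 nt and DSE4 at 43 nt, the transglycosidase gene CRH1 at 27 nt and CIS3 at 18 nt. S288C TL-seq gave 79 nt for PIR1 and 47 nt for DSE4, each in 1 replicate. Both replicates gave 99 nt for EXG1, 125 nt for SCW10 and 43 nt for CIS3, and Sigma gave 4 nt for CIS3. EGT2 and CRH1 had no TL-seq call. Of 20 compared, 3 were longer, FIT2, MF(ALPHA)2 and PRY2 above, and 1 shorter, PLB1, with 162 nt in fraction 1 and 160 to 179 nt elsewhere.

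Iron uptake and regulation had 3 longer of 9 compared (33.3%), all beyond the range of the others, and none shorter. Besides FIT2, which is also in the secreted list, these were MRS4, the mitochondrial iron carrier, with 165 nt in fraction 1 and 68 nt in fractions 2 to 6, and CCC1, the vacuolar iron transporter, with 114 nt in fraction 1 and 91 or 92 nt in 4 others. A further 3 of 23 were missing from fraction 1: the siderophore transporter gene ARN1, the iron permease gene FTR1 and CTH1, whose product binds mRNAs of iron-using proteins. MRS4 and CCC1 had no TL-seq call in any library, so no outside length is at hand.

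Glycolysis and fermentation had 4 of 18 called only in fraction 1 (22.2%) and 2 missing. The 4 were ADH3 at 579 nt, ENO1 at 319 nt and the pyruvate decarboxylase genes PDC1 and PDC5 at 167 nt each, against S288C TL-seq lengths of 32 nt in 1 replicate for ADH3, 38 nt for ENO1, 31 nt for PDC1, and 16 and 13 nt for PDC5. The missing were TDH2, with 250 to 261 nt in fractions 2 to 7 and 49 nt in S288C TL-seq, and the pyruvate kinase gene CDC19, with 12 to 14 nt. None of the 6 compared was longer or shorter. All 4 found in fraction 1 alone had leaders more than 100 nt above TL-seq. Several genes of this pathway have near-identical copies, and whether shared reads play a part in these calls was not tested.

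Cytosolic ribosomal protein genes, which code for the proteins of the ribosome itself, had 1 longer of 103 compared (0.971%) and 6 shorter (5.83%). RPL15B had 194 nt in fraction 1, against 29, 29, 36, 31 and 36 nt in fractions 3 to 7. For RPL15B, S288C TL-seq gave 331 nt in 1 replicate with no call in the other, and Sigma TL-seq gave 29 nt. RPP1A had 19 nt in fraction 1 and 26 to 45 nt elsewhere, RPS18B 6 nt in fraction 1 and 14 to 34 nt, and RPL23A 1 nt in fraction 1 and 4 to 20 nt. RPL42B, RPL33A and RPS12 were the other shorter members, and none of the 6 lay at least 10 nt below every other fraction. Called in fraction 1 alone were RPS11A and RPS20, 2 of 127, and missing were RPS25A, RPL12A and RPL23B, 3 of 127 (2.36%). Many of these genes are pairs of near copies, and whether their calls share reads was not tested. Mitochondrial ribosomal protein genes had none longer and 1 shorter of 40, MRPL16, with 70 nt in fraction 1 and 82 nt in all others. NAM9 was called only in fraction 1, and MRPL15 and MRPL32 were missing, 2 of 60.

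Ribosome biogenesis genes had 1 longer and 6 shorter of 46 compared (13.0% shorter). The shorter included the pseudouridine synthase gene CBF5, with 6 nt in fraction 1 and 21 to 24 nt elsewhere, NIP7, with 7 nt in fraction 1 and 25 nt in all others, FCF2, with 8 nt in fraction 1 and 13 to 31 nt, and NOP13, with 9 nt in fraction 1 and 14 to 28 nt. BRX1 was longer, with 31 nt in fraction 1 and 5 to 19 nt elsewhere. Missing were 9 of 94 (9.57%), among them the nucleolar methyltransferase gene NOP1, at 75 nt in all of fractions 2 to 7, and RRP9 at 90 to 92 nt; found in fraction 1 alone were 4, ARX1, NOP14, UTP13 and NOP56.

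Amino acid biosynthesis had none longer and 4 shorter of 25 compared (16.0%): SER2, with 7 nt in fraction 1 and 7 to 26 nt elsewhere, ORT1, with 30 nt in fraction 1 and 40 to 55 nt, TRP3, with 16 nt in fraction 1 and 30 to 35 nt, and ARO3, with 2 nt in fraction 1 and 15 to 18 nt. Of 67 called, 5 were found in fraction 1 alone, ASN2, GLT1, the acetolactate synthase gene ILV2 at 194 nt, the glutamate dehydrogenase gene GDH1 at 193 nt and SHM2 at 36 nt. Missing were 6 (8.96%), among them TRP4 at 72 nt and TYR1 at 43 nt in all of fractions 2 to 7. The asparagine synthetase pair fell on both sides, with ASN2 in fraction 1 alone at 304 nt and ASN1 in all others at 17 to 29 nt.

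Translation factors had 2 longer and 1 shorter of 22: TIF2, for the helicase eIF4A, with 61 nt in fraction 1 and 48 to 57 nt elsewhere, the termination factor gene SUP35, with 42 nt in fraction 1 and 22 to 42 nt, and HCR1, with 31 nt in fraction 1 and 35 to 62 nt. The helicase gene DED1, with 12 nt, was found in fraction 1 alone and EFT2 was missing. Respiration genes had 1 longer and 2 shorter of 25: CYC7, COX5A, with 9 nt in fraction 1 and 23 or 24 nt elsewhere, and INH1, with 113 nt in fraction 1 and 113 to 156 nt. SDH1 and RIP1 were missing. Proteasome genes had 1 longer and 2 shorter of 19, PRE10, RPN5 and RPN12; RPN12 had 2 nt in fraction 1 and 13 nt in all others, with 2 nt in Sigma and 7 and 28 nt in the S288C replicates. PRE6, RPT1 and RPT2 were missing, 3 of 30, each with the same length in all of fractions 2 to 7, at 30, 27 and 18 nt.

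Spliceosome and Sm/LSm genes had 2 longer and 2 shorter of 23, LSM2 and LEA1 against LSM4 and CUS1, with 5 of 51 missing (9.80%): PRP2, PRP38, PRP40, PRP45 and SNU66. Cell cycle and kinetochore genes had 2 longer and 1 shorter of 27. CTF19 and SPC24, with 39 nt in fraction 1 and 9 to 24 nt elsewhere, were longer, and CDC28, for the cell cycle kinase, was shorter, with 14 nt in fraction 1 and 25 to 33 nt elsewhere. MTW1, IML3, BUB3 and PDS1 were missing, 4 of 51. Chaperones and heat shock genes had STI1 longer and YDJ1 shorter of 13, with SSE1 found in fraction 1 alone and SSA2 missing. Redox and glutathione genes had GLO1 longer and CCS1 shorter of 16 and none missing. None of 10 histone genes differed, and none of 11 was missing or found in fraction 1 alone. Of the genes with characterised upstream ORFs, none of 3 compared differed; HAP4, an activator of respiration genes, was found in fraction 1 alone with a leader of 901 nt, and AVT2 was missing.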

How the data were processed

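TL-seq and TATL-seq ligate an adaptor to RNA 5′ ends after phosphatase and pyrophosphatase treatment, which favours capped ends. Per the labels' protocols, the TL-seq libraries were finished by poly(A) tailing and the gradient libraries by adaptor ligation, so lengths from the TL-seq and gradient libraries also differ in method. The deposited files hold, per the file headers and values, 1 leader length in nt per gene and library, which is not a read count. Reads were aligned with Bowtie, and the build for the gradient and Sigma libraries was sacCer3, per the submitters' processing notes. The sources used here do not give the authors' read minimum, their rule for choosing a length or their annotation. Depth is unknown, so no precision per length can be given.

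ORFs were joined by systematic name, and symbols, positions and ORF lengths were taken from the RefSeq table of R64. An ORF was longer or shorter in fraction 1 at a difference of 10 nt or more from the median of fractions 2 to 7, called in at least 3 of them. Genes named were the 15 largest differences on each side beyond the range of the other fractions, the 10 longest and 10 shortest leaders among ORFs found in fraction 1 alone (called in both S288C TL-seq replicates) and among missing ORFs (a span under 10 nt elsewhere), up to 6 members per class of 16 gene lists by size (930 of 931 names matched), and 3 ORFs on either side of each threshold. Of the named genes, 1 with a large negative difference is not reported here. Members and lists were chosen with earlier results of these data known. The code of the comparison was checked on simulated fraction 1 lengths, with fixed shifts well above the threshold and no noise. That check gives no error rate for the real lengths. Alternatives were other thresholds, other numbers of fractions called, the mean in place of the median, each fraction left out, snoRNA and tRNA names included, and other TL-seq standards. Python 3.11.15, pandas 2.3.3, NumPy 2.4.6, SciPy 1.17.1 and matplotlib 3.10.9 were used.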

Additional observations from a re-analysis of the deposited data

Results flagged for a closer look

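The gradient files also list small nucleolar RNA (snoRNA) and transfer RNA (tRNA) names, which no comparison above used. Fraction 1 had 45 such names, fractions 2 to 7 had 5 to 22, the Sigma libraries had 17 with pyrophosphatase and 2 without, and both S288C TL-seq libraries had 0. Of the 45, 17 were snoRNA and 28 tRNA names; fraction 2 also had 17 snoRNA names but 5 tRNA names, and fractions 3 to 7 had 1 to 3 tRNA names. In no other fraction were 24 of the 45 called. The median length given in fraction 1 was 128 nt for snoRNA and 8 nt for tRNA names. This result was picked out because it lies in names outside the ORF comparison and above the library without pyrophosphatase; every other gradient fraction also lay above that library, so this reason is not particular to fraction 1.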

How the results depend on the processing

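At a threshold of 5 nt in place of 10 nt, 191 ORFs were longer in fraction 1, 291 shorter and 114 below the range of the others. At 20 nt these were 54, 42 and 21, with 41 above the range, and at 50 nt 40, 13 and 7, with 34 above. Shorter ORFs thus outnumbered longer ones at 5 and 10 nt, and longer ones outnumbered shorter ones at 20 and 50 nt. Among ORFs called in all of fractions 2 to 7, 58 were longer, 97 shorter, 24 above and 33 below. With 1 call allowed elsewhere, 281 ORFs counted as found in fraction 1 alone, and 112 of the 171 were also in S288C TL-seq. With 5 or more calls required, 486 were missing from fraction 1. With Sigma as the standard, 24.2% of longer and 22.1% of shorter ORFs lay nearer to fraction 1. Leaving out each of fractions 2 to 7 gave 109 to 118 longer, 144 to 157 shorter, 60 to 68 above, 50 to 72 below, 178 to 204 in fraction 1 alone and 314 to 358 missing ORFs, with a median difference of 0 nt each time, and 15.7% to 16.6% of ORFs at least 10 nt from the median. Leaving out 1 S288C replicate gave 46.2% to 46.4% for longer and 31.5% to 32.9% for shorter ORFs. Alternatives not printed here stayed within 1.5 times the reported count, or within its interval for a share. The alternatives without fraction 1 among the others were chosen after seeing the data. No paired analysis was possible because there is 1 library per fraction. The cause of these shifts was not tested, beyond fewer ORFs being counted under stricter rules, and depth is unknown.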
